A study of Mus musculus with 12 samples.

Results

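The genes described here are 36 hypoxia-inducible genes whose known work lies outside glycolysis, chosen by a fixed list of gene symbols and found by Ensembl gene ID among the 27412 IDs of the deposited count table. All 36 had a row. They were measured in thin outer slices of kidney cortex from male C57BL/6 mice that received no treatment. The transgenic mice, labelled γ-HIF2αM3 TG+, carry the HIF2αM3 transgene, a HIF2α mutant that escapes oxygen-dependent breakdown. It is driven by a promoter of the γ-glutamyl transferase gene, which is active in the proximal tubule. They are called HIF2aM3 here (animals 17-51, 17-53 and 17-56), and the controls were wild-type mice (WT 1, WT 2 and WT 3). Each genotype had 3 animals with 2 kidneys each, giving 12 libraries. No age was stated in the sources used here, and neither was whether the shared prefix 17 marks 1 transgenic line. If it does, effects of line or insertion site and of the active HIF2α cannot be told apart.

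Hypoxia-inducible factors (HIFs) are transcription factors made of an oxygen-labile α subunit and a stable partner. When oxygen is scarce, or when the α subunit carries mutations that shield it from prolyl hydroxylases, the pair binds short hypoxia response elements and switches on target genes. Besides the well-known glycolytic enzymes, those targets include receptors that send mitochondria to autophagy, enzymes that hydroxylate and cross-link collagen, histone demethylases that themselves need oxygen, brakes on growth, and secreted factors that act on vessels and blood. In the kidney, HIF2α is best known in endothelium and in the interstitial cells that make erythropoietin, whereas tubule cells mainly use HIF1α. The transgene places an active HIF2α in a cell type where this subunit is normally scarce.

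Library totals ran from 24032148 to 43499743 counts, except kidney 2 of 17-51 with 4161829, called the shallow library here. Epas1, the gene of HIF2α, had 204 ± 30.9 CPM (library-size-scaled counts, SD over 3 animals) in WT against 267 ± 16.7 CPM with the transgene. Its log2 fold change of 0.39 ± 0.11 (SE) missed the adjusted p threshold of 0.05 (edgeR adjusted p = 0.0881), and the labels do not say whether transgene reads are counted under Epas1. Markers of the labelled tissue were present, with no proximal tubule marker at 0. The summed level of 10 proximal tubule genes was 15300 to 17300 CPM in WT libraries and 13060 to 15310 CPM in HIF2aM3 libraries. These 10 genes went both ways, with 4 positive and 6 negative fold changes and a median of -0.09 (log2). Of them, 1 was called higher and 1 lower. The sum of 10 collecting duct genes was 756 to 844 CPM in WT and 522 to 689 CPM in HIF2aM3 libraries, with 4 of the 10 called lower. For 7 distal tubule and loop of Henle genes it was 3198 to 4869 and 3164 to 3730 CPM, with 6 negative fold changes and a median of -0.32 (log2). Immediate early genes summed to 54.02 to 83.1 CPM in WT and 59.8 to 140.3 CPM in HIF2aM3 libraries, with 2 of 8 called higher and a median of 0.74. The part of these differences in the results was not tested. In RNA from whole slices, fewer cells of a type and less RNA per cell cannot be told apart.

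Promoter sequence is shown for members on which the results turn, because these genes are known as hypoxia targets and did not move alike. The core of the hypoxia response element was searched as ACGTG and GCGTG on both strands in the 250 bases before each start site of the RefSeq promoter table (build GRCm38.p6). CACGTG counts once on each strand. An entry was found for 24 of the 36 members, and 22 of these, or 91.7%, held a match, against 41.5% of all genes in that table. The members and that table were not matched for expression or base composition. A match is a description of these letters and not a binding site. In the sequences below, written 5′ to 3′ along the gene's own strand, capitals mark the matches, and each stretch ends at the start site or, if earlier, where the first annotated exon begins.
Ankrd37: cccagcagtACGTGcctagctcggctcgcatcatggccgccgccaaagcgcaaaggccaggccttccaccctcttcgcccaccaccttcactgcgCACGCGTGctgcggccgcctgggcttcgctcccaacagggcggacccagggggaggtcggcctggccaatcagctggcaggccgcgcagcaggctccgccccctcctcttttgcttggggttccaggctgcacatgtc
Bnip3: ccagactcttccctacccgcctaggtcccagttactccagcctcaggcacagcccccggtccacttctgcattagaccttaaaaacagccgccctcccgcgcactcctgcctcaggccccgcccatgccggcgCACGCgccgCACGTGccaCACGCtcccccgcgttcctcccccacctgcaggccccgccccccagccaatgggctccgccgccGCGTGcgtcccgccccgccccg
P4ha1: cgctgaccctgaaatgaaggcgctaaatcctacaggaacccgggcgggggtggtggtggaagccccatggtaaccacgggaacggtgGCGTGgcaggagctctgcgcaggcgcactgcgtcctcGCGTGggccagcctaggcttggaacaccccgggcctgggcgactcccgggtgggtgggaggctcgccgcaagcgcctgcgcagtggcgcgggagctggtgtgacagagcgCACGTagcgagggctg
P4ha2: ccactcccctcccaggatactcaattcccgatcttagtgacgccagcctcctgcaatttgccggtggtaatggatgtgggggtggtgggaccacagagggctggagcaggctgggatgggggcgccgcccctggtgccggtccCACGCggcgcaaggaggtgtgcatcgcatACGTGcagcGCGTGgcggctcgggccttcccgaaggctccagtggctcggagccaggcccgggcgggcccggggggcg
Plod1: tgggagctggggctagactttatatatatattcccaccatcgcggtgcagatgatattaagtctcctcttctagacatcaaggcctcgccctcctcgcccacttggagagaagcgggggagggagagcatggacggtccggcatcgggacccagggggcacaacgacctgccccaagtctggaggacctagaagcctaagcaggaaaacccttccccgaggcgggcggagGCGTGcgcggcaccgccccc

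The Ankrd37 stretch lies on the minus strand at chr8:45999868-46000100 and shows 3 of the gene's 4 matches, the pair in CACGCGTG facing opposite ways. At least 4 matches occur in 2.58% of all entries. The Bnip3 stretch, at chr7:138909520-138909756 on the minus strand, holds 5. P4ha1, at chr10:59323046-59323295, and P4ha2, at chr11:54100674-54100923, both on the plus strand, hold 3 each, and 6.58% of all entries hold at least 3. Plod1, at chr4:147936777-147937026 on the minus strand, holds 1. Of the other members that differed between genotypes, Kdm3a had 1 match at the first of its 3 start sites and Jmjd6 had 2, while Bnip3l had no entry. Beside these matches, described further on, Ankrd37 rose, Plod1 fell, and Bnip3, at 0.10 ± 0.07 (log2, SE), did not pass.

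The comparison asked how these targets differ in cortex that carries the transgene. In the HIF2aM3 cortex Ankrd37, Bnip3l and Kdm3a rose, and Jmjd6 and Plod1 fell. Of 35 members tested, 5 passed the threshold (14.3%), against 3.75% of all 19564 genes tested. By direction, 3 were higher, where the share of all genes is 1.93%, and 2 lower, where it is 1.82%. The members were chosen with earlier results of these data known, so these shares are a description and were not tested against each other. The remaining member, P4ha3, had 16 reads in WT and 9 in HIF2aM3 and was too low to test. The median log2 fold change of the members tested was 0.15, against 0.005 over all genes tested, with 24 positive and 11 negative values. Only Ankrd37 and Stc1 had an absolute log2 fold change over 1. Without the shallow library and kidney 2 of 17-56, which stood apart for several members, 5 members were again called. The count changed when single animals were left out, as did the count over all genes, which was 733 with all animals. Members and all genes called were 1 and 115 without WT 1, 7 and 1549 without WT 2, and 2 and 187 without WT 3. They were 1 and 42 without 17-51, 2 and 196 without 17-56, and 3 and 479 without kidney 1 of 17-56. Leaving out 17-53 gave 0 edgeR calls among the members, with 14 at an unadjusted p under 0.05, and 11 calls over all genes. DESeq2, on all animals, called 12 of the 36 members and 2020 of the 27407 genes that had a p-value. Its own filter can leave genes of low count without an adjusted p, so these totals are not comparable with the 19564 of edgeR.

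**Figure D1:**
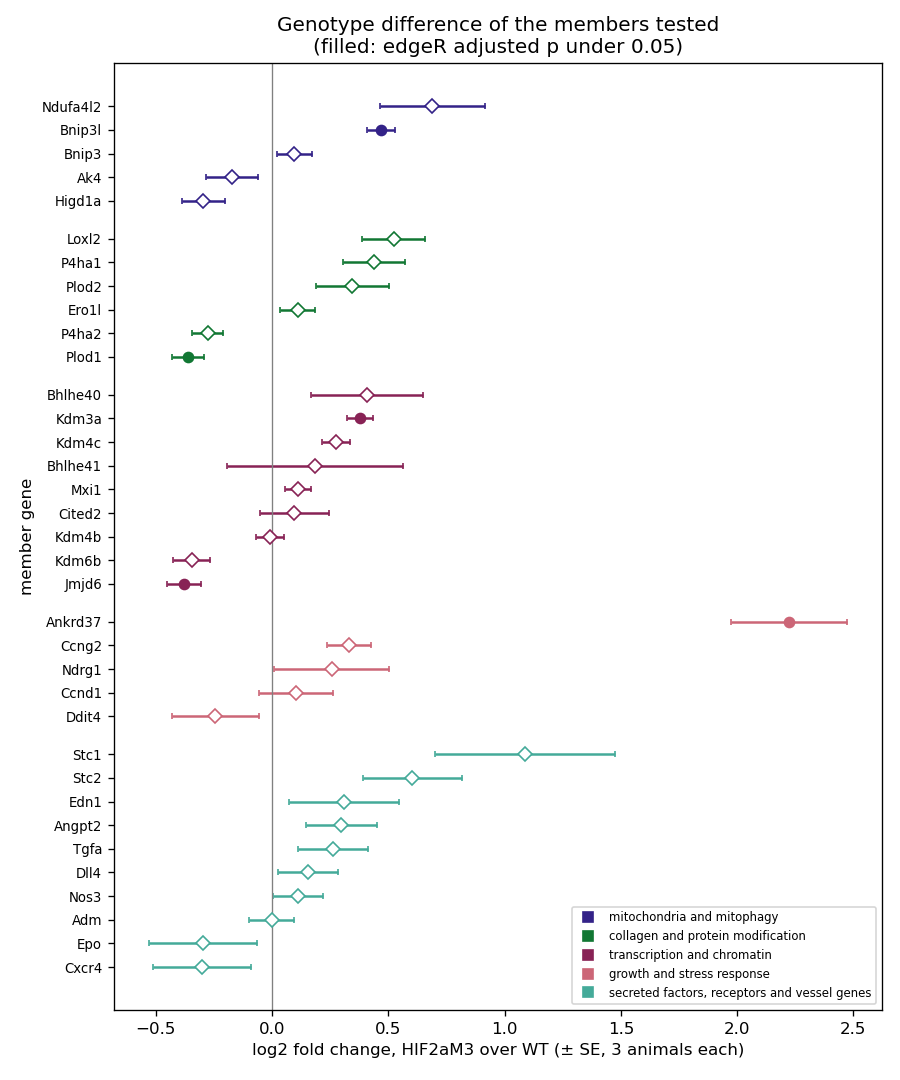
Log2 fold change of HIF2aM3 over WT for the 35 members tested, grouped by role, with the standard error as bars (3 animals per genotype). Filled points mark the 5 members past the edgeR threshold, and Ankrd37, at 2.22, lies farthest from 0.

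Animals of the genotypes did not overlap for 14 members, 9 higher and 5 lower in HIF2aM3. This was 40.0% of the members tested, near the 32.0% of all genes tested (15.5% higher and 16.5% lower). At an unadjusted p under 0.05 there were 15 of 35 members, and 4876 of 19564 genes (24.9%). The authors' deposited table gave 12 of 36 members a q under 0.05 in its library test, which does not group kidneys by animal. Over that whole table the test gave 3445 of 27412 genes (12.6%). All 5 members called here were among the 12.

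Members of the mitochondrial group act in clearing or retuning mitochondria. Bnip3l and Bnip3 encode related receptors of the outer mitochondrial membrane that recruit the autophagy machinery. Bnip3l had 62.8, 58.2 and 65.0 CPM in WT 1, 2 and 3 and 88.7, 86.0 and 82.8 CPM in 17-51, 17-53 and 17-56. Each HIF2aM3 animal lay above each WT animal, and the libraries did not overlap either, the highest WT library being at 67.9 CPM and the lowest HIF2aM3 library at 79.9 CPM. The rise of Bnip3l was 0.47 ± 0.06 on the log2 scale (SE, edgeR adjusted p = 0.0167). With 1 animal left out it was 0.42 to 0.50, and the call was lost without WT 1, 17-51 or 17-53 (adjusted p up to 0.0785). Its relative Bnip3 had 13.3, 15.1 and 14.4 CPM in WT and 14.5, 16.1 and 14.9 CPM in HIF2aM3, and these groups overlapped. The ratio of Bnip3l to Bnip3 CPM was 3.87 to 4.74 in WT animals and 5.34 to 6.11 in HIF2aM3 animals, a ratio chosen after the values were seen and not tested.

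The other mitochondrial members went both ways and none passed. Ndufa4l2, which encodes a protein that lowers complex I activity in hypoxia, had 2.26, 3.43 and 2.51 CPM in WT and 5.17, 4.94 and 3.22 CPM in HIF2aM3. Only 17-56 lay inside the WT range, and the log2 fold change was 0.69 ± 0.23 (SE, edgeR adjusted p = 0.123). Ndufa4l2 shares 32 of its 1095 exon bases with Shmt2 on the opposite strand. Shmt2 had 43260 reads in WT against 505 for Ndufa4l2, so the Ndufa4l2 value is uncertain. Higd1a, of the inner mitochondrial membrane, had 13.9, 13.3 and 14.4 CPM in WT and 12.3, 11.8 and 9.84 CPM in HIF2aM3, without overlap (-0.29 ± 0.09, adjusted p = 0.114). Ak4, an adenylate kinase of the mitochondrial matrix, had the highest length-scaled level of the group. It was at 273, 359.5 and 285 CPM in WT and at 278, 286 and 250 CPM in HIF2aM3. WT 2 stood highest and the other animals mixed (-0.17 ± 0.11, adjusted p = 0.374).

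**Figure D2:**
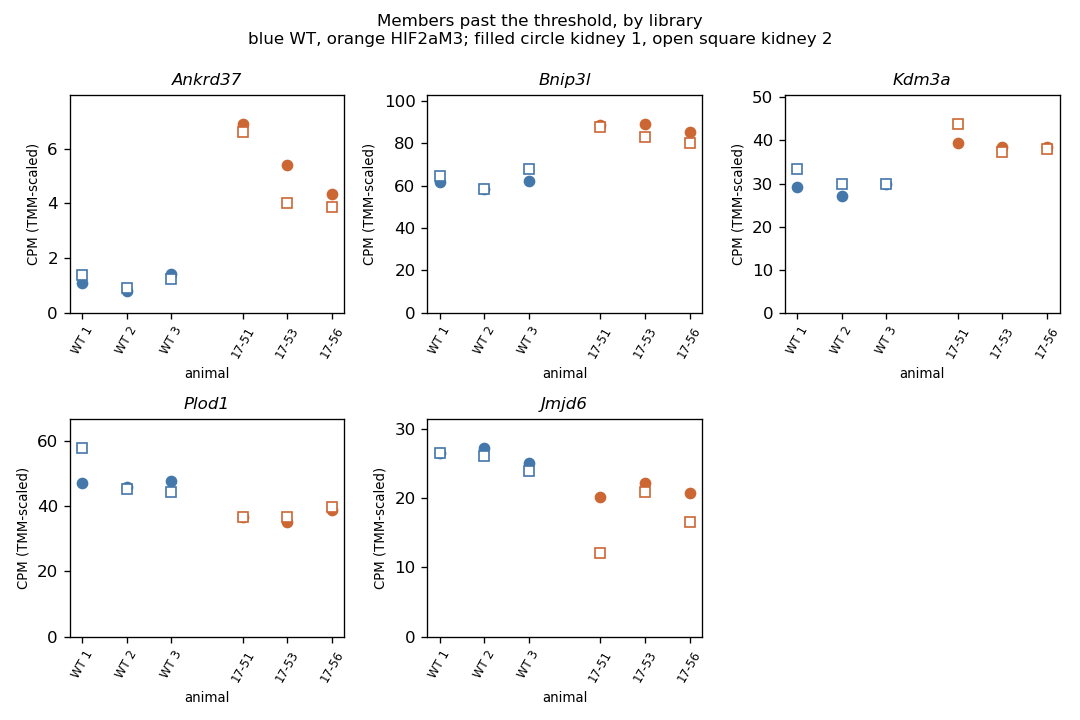
CPM of the 5 members past the threshold in each of the 12 libraries, with kidney 1 as filled circles and kidney 2 as open squares above the animal they came from. In each panel the 6 HIF2aM3 libraries lie wholly above (Ankrd37, Bnip3l, Kdm3a) or wholly below (Plod1, Jmjd6) the 6 WT libraries.

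Of the 6 collagen-modifying members tested, 1 passed, Plod1, which fell. P4ha1, P4ha2 and P4ha3 encode alternative catalytic subunits of collagen prolyl 4-hydroxylase, and Plod1 and Plod2 encode lysyl hydroxylases whose products prepare collagen for cross-linking. Plod1 had 52.3, 45.4 and 45.8 CPM in WT and 36.8, 35.9 and 39.0 CPM in HIF2aM3. It fell by 0.36 ± 0.07 on the log2 scale (SE, edgeR adjusted p = 0.0412), with no overlap between libraries. With 1 animal left out its value was -0.40 to -0.30, and it was called only without WT 2 (adjusted p up to 0.145). The call was also lost without kidney 1 of WT 1, WT 3 or 17-56 (adjusted p up to 0.0569). Plod2 had 44.8, 36.4 and 58.0 CPM in WT and 62.1, 59.0 and 55.9 CPM in HIF2aM3. Here 17-56 lay below WT 3, and the value of 0.35 ± 0.16 did not pass (adjusted p = 0.228).

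Neither prolyl hydroxylase subunit gene tested passed the threshold, though the animals of the genotypes did not overlap for either. P4ha1 had 66.2, 55.7 and 70.8 CPM in WT and 96.9, 93.1 and 71.3 CPM in HIF2aM3, so that 17-56 lay just above WT 3 (0.44 ± 0.14, SE, edgeR adjusted p = 0.110). P4ha2 had 21.5, 19.7 and 21.2 CPM in WT and 17.3, 17.9 and 16.3 CPM in HIF2aM3 (-0.28 ± 0.07, adjusted p = 0.0619). The ratio of P4ha1 to P4ha2 CPM was 2.83 to 3.34 in WT and 4.39 to 5.59 in HIF2aM3 animals. For Plod2 to Plod1 it was 0.801 to 1.27 and 1.43 to 1.69. These ratios were chosen after the values were seen and were not tested. The promoters of P4ha1 and P4ha2 printed above hold equal numbers of matches.

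Loxl2, a lysyl oxidase relative that cross-links collagen, had 10.7, 12.1 and 11.5 CPM in WT and 14.0, 15.1 and 20.03 CPM in HIF2aM3. The groups did not overlap, and the value of 0.52 ± 0.13 (SE) lay outside the threshold (edgeR adjusted p = 0.0739). Kidney 2 of 17-56 was at 25.0 CPM, against 13.5 to 17.5 CPM in the other HIF2aM3 libraries, and without it the log2 fold change was 0.39 and passed (adjusted p = 0.0483, with 0.0303 to 0.142 over the leave-outs of 1 library). Markers of fibroblasts, pericytes and smooth muscle stood beside it: the summed level of 12 such genes was 242 to 419 CPM in WT libraries and 398.5 to 668.7 CPM in HIF2aM3 libraries, highest in that same kidney. None of the 12 was called by edgeR, 8 had an unadjusted p under 0.05 and DESeq2 called 3. The part of these cells in the Loxl2 values was not tested. Ero1l, which encodes an oxidase that renews disulfide formation in the endoplasmic reticulum, had 16.8 to 17.9 CPM in WT and 17.5 to 20.5 CPM in HIF2aM3 animals.

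**Figure D3:**
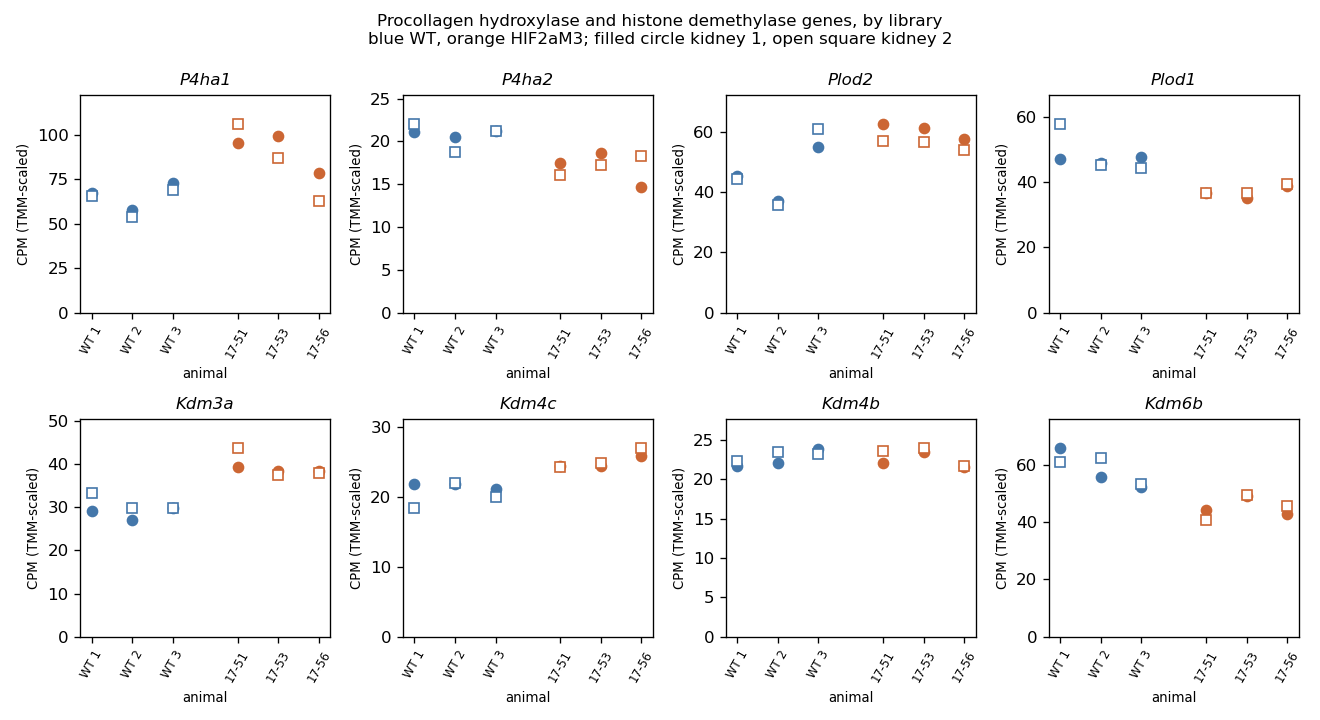
CPM of 4 procollagen hydroxylase genes and 4 histone demethylase genes in each library, with kidney 1 as filled circles and kidney 2 as open squares. Of these 8 genes Kdm3a, which rose, and Plod1, which fell, passed the threshold, and Kdm4b averaged 22.7 CPM in WT and 22.5 CPM in HIF2aM3.

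Members of the transcription and chromatin group include several oxygenases that need oxygen for their own reaction. Kdm3a, which removes methyl groups from a repressive lysine mark of histone H3, had 31.1, 28.2 and 29.8 CPM in WT and 40.0, 37.9 and 38.2 CPM in HIF2aM3. Each HIF2aM3 library exceeded each WT library, and Kdm3a rose by 0.38 ± 0.06 (log2, SE, edgeR adjusted p = 0.0235). With 1 animal left out its value was 0.34 to 0.40, and it was called only without WT 2 (adjusted p up to 0.0957). Jmjd6, which encodes a lysyl hydroxylase of nuclear proteins, moved the other way. It had 26.4, 26.6 and 24.4 CPM in WT and 19.1, 21.5 and 18.8 CPM in HIF2aM3 and fell by 0.38 ± 0.07 (adjusted p = 0.0406). The lowest library, at 12.03 CPM, was the shallow one with 51 Jmjd6 reads, and without it the call remained. With 1 animal left out Jmjd6 was at -0.44 to -0.34 and was called only without WT 2 (adjusted p up to 0.104), and it lost its call without kidney 1 of 17-51 or 17-56 (adjusted p up to 0.105). Jmjd6 shares 172 exon bases with Mettl23 on the opposite strand, whose log2 fold change was 0.01 ± 0.07. Whether counting used strand was not stated.

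The other demethylase genes did not pass. Kdm4c, whose product can act on trimethylated lysines, had 19.99, 21.9 and 20.5 CPM in WT and 24.5, 24.6 and 26.4 CPM in HIF2aM3, just outside the threshold (0.27 ± 0.06, SE, edgeR adjusted p = 0.0550). Kdm6b, which acts on the Polycomb mark, had 63.2, 58.4 and 52.7 CPM in WT and 43.7, 49.3 and 44.02 CPM in HIF2aM3, also without overlap (-0.35 ± 0.08, adjusted p = 0.0599). Kdm4b was flat, with a log2 fold change of -0.01 ± 0.06. The ratio of Kdm3a to Kdm6b CPM was 0.484 to 0.566 in WT animals and 0.769 to 0.916 in HIF2aM3 animals, chosen after the values were seen and not tested.

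Bhlhe40 and its relative Bhlhe41 encode repressors that link hypoxia to the circadian clock. Bhlhe40 had the highest length-scaled level of the group and varied widely in WT, with 93.1, 118.3 and 56.8 CPM, against 113.4, 126.2 and 116.2 CPM in HIF2aM3. The WT animals spanned a wider range than the HIF2aM3 animals, and the value of 0.41 ± 0.24 (SE) was 0.16 without WT 3. Bhlhe41 had 2.82 to 6.99 CPM in WT and 3.42 to 6.87 CPM in HIF2aM3 animals. Mxi1, an antagonist of MYC, and Cited2, which competes with HIFα for its coactivator, had log2 fold changes of 0.11 ± 0.06 and 0.10 ± 0.15. Neither passed.

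Of the growth and stress members, Ankrd37 had the largest change of all 35 members tested. It encodes a small ankyrin-repeat protein and is among the genes most regularly induced by hypoxia. The 3 WT animals had 1.23, 0.825 and 1.30 CPM and the 3 HIF2aM3 animals 6.89, 4.74 and 4.13 CPM. These values rested on 201 reads in WT and 866 in HIF2aM3. All HIF2aM3 libraries lay above all WT libraries, whose highest was at 1.40 CPM, against a lowest of 3.86 CPM in HIF2aM3. Ankrd37 rose by 2.22 ± 0.25 (log2, SE, edgeR adjusted p = 0.0143), or 4.67-fold. It lost its call without 17-53 (2.29, adjusted p = 0.0708) and in limma on the authors' RPKM, with 1.86 on the log2(RPKM + 0.1) scale and 0.82 on the log2(RPKM + 1) scale, which understates changes of low genes. Over the alternatives the adjusted p was at most 0.0768.

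Reads of Ankrd37 may be shared with its neighbors. It overlaps 349 exon bases of Lrp2bp and 57 of Ufsp2, both on the opposite strand. Lrp2bp, which encodes a partner of the endocytic receptor megalin, rose too, from 117 to 396 reads (1.93 ± 0.36, SE, edgeR adjusted p = 0.0412). Ufsp2, a protease gene, was level at 35.7 and 35.0 CPM on average. The strand setting was not stated, so the reads of Ankrd37 and Lrp2bp cannot be told apart in the shared stretch. Both values are uncertain, and the rise of Lrp2bp cannot be read as a change separate from that of Ankrd37.

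Ndrg1, a stress-responsive gene of differentiated epithelium, had the highest length-scaled level of all members, 194 ± 60.8 RPKM (reads scaled by gene length and library size by the authors; SD, n = 3) in WT and 238 ± 24.1 RPKM in HIF2aM3. Its CPM were 3451, 1784 and 3463 in WT and 3870, 3269 and 3250 in HIF2aM3. Only WT 2 stood low, in both kidneys, and the log2 fold change of 0.26 ± 0.25 (SE) became -0.00491 without that animal. Its exons overlap those of Gm17035 and Gm2895 on the opposite strand. Gm17035 had 722, 378 and 701 CPM in WT and 755, 639 and 637 CPM in HIF2aM3, with WT 2 low as for Ndrg1. How many reads these genes share was not tested. Ccng2, an atypical cyclin gene that slows the cell cycle, had 22.4, 18.1 and 22.7 CPM in WT and 25.2, 26.4 and 27.8 CPM in HIF2aM3, without overlap (0.33 ± 0.10, edgeR adjusted p = 0.0923). Ccnd1, which encodes a cyclin of G1 phase, and Ddit4, whose product restrains mTOR, had 0.10 ± 0.16 and -0.24 ± 0.19 and did not pass. Ccnd1 shares 1100 of its 4709 exon bases with LTO1 on the opposite strand, a gene with 23165 reads in WT.

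**Figure D4:**
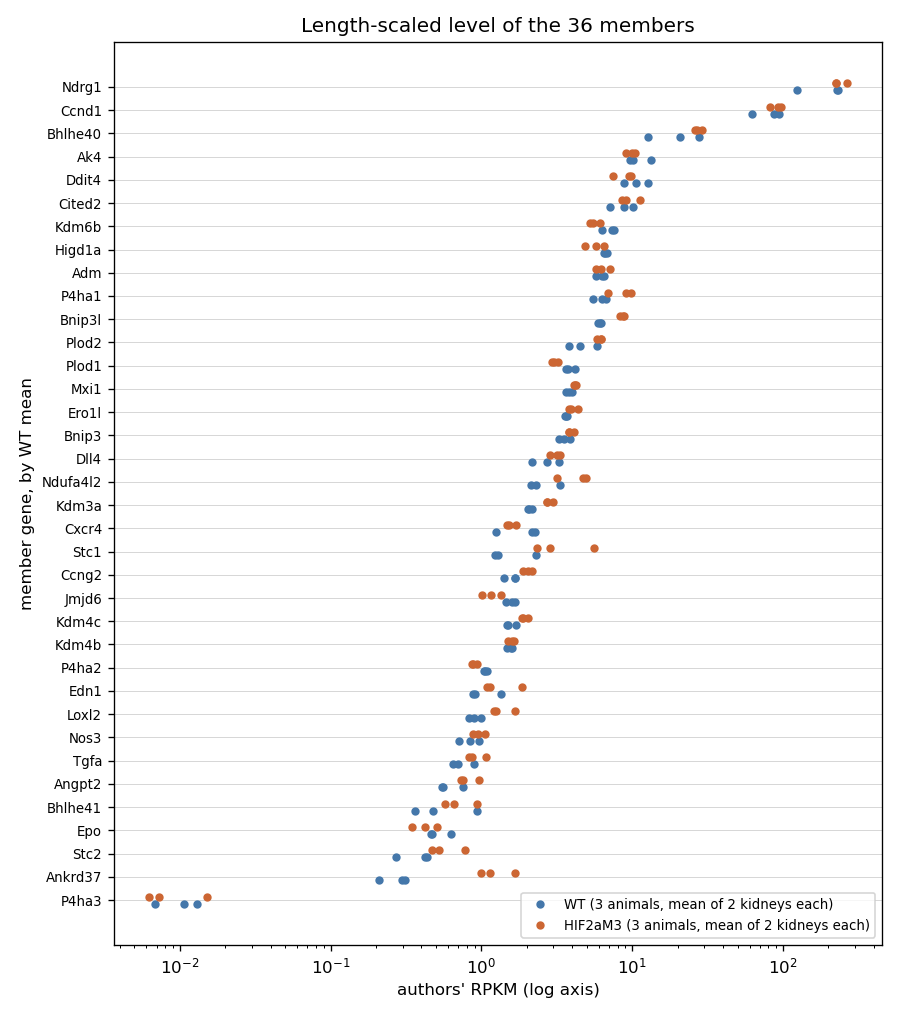
Authors' RPKM of all 36 members on a log axis, ordered by the WT mean, with 1 point per animal (mean of its 2 kidneys). Levels run from 194 RPKM for Ndrg1 to 0.0102 RPKM for P4ha3, and Ankrd37 is the 35th in this order in WT, at 0.272 RPKM.

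The secreted factors, receptors and vessel genes gave no call in edgeR or DESeq2, with 2 of 10 at an unadjusted p under 0.05 in each. Those were Stc1 and Stc2 in edgeR, which encode stanniocalcins, secreted glycoproteins with a role in mineral handling and stress. Stc1 had 5.84, 10.6 and 6.08 CPM in WT and 12.3, 10.6 and 25.0 CPM in HIF2aM3. The animals just failed to overlap, WT 2 being at 10.57 and 17-53 at 10.64 CPM, while their libraries did overlap. Its log2 fold change of 1.09 ± 0.39 (SE, edgeR adjusted p = 0.150) was 0.60 without 17-56, in which both kidneys were high at 23.5 and 27.1 CPM. Stc2 had 2.83, 4.29 and 4.62 CPM in WT and 5.23, 5.31 and 7.34 CPM in HIF2aM3 (0.60 ± 0.21, adjusted p = 0.142). In 17-56 the second kidney had 11.5 CPM and the first 4.08 CPM, and without kidney 2 the value was 0.31.

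Epo, the hormone gene of red cell production, is made in the cortex by interstitial cells and not by the proximal tubule. It had 2.10, 2.01 and 2.92 CPM in WT and 2.49, 1.85 and 1.46 CPM in HIF2aM3, and the groups overlapped (-0.30 ± 0.23, SE, edgeR adjusted p = 0.463). Epo shares 104 of its 855 exon bases with Gnb2 on the same strand, a gene with 23597 reads in WT against 428 for Epo, so the Epo value is uncertain. Edn1, which encodes the vasoconstrictor endothelin, had 2.30, 3.39 and 2.39 CPM in WT and 2.80, 2.78 and 4.43 CPM in HIF2aM3. Its log2 fold change of 0.31 ± 0.24 was 0.07 without kidney 2 of 17-56. Adm, which encodes the vasodilator adrenomedullin and had the highest length-scaled level of this group, had 10.1, 9.51 and 9.07 CPM in WT and 10.7, 8.69 and 9.35 CPM in HIF2aM3. These values were mixed, with a log2 fold change of -0.001 ± 0.10.

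Genes of vessel cells and their ligands showed small differences. Angpt2, a ligand of the endothelial TIE receptor, had 0.30 ± 0.15 (log2, SE), the endothelial Notch ligand gene Dll4 had 0.15 ± 0.13, and Nos3, which encodes endothelial nitric oxide synthase, had 0.11 ± 0.11. None passed (edgeR adjusted p from 0.271 to 0.557). Nos3 shares 1040 of its 4132 exon bases with Gm15587 and 294 with Atg9b, both on the opposite strand. The summed level of 11 endothelial markers was 458 to 735 CPM in WT and 719 to 774 CPM in HIF2aM3 libraries. All 11 had positive fold changes, with a median of 0.415 (log2), and 8 had an unadjusted edgeR p under 0.05. Of the 11, edgeR called 3 higher (Kdr, Emcn and Erg), or 27.3%, against 1.93% of all genes, and DESeq2 called 8. The part of endothelial cells in the values of Angpt2, Dll4 and Nos3 was not tested. Tgfa, a ligand of the EGF receptor, and Cxcr4, a chemokine receptor of leukocytes and endothelium, had 0.26 ± 0.15 and -0.30 ± 0.21. The 10 leukocyte markers summed to 78.2 to 149.7 CPM in WT and 135 to 199.9 CPM in HIF2aM3 libraries. Of these 10, 9 had positive fold changes and 1 a negative one, with a median of 0.329 (log2), and 1 was called higher by edgeR. The part of leukocytes in the Cxcr4 values was not tested.

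**Figure D5:**
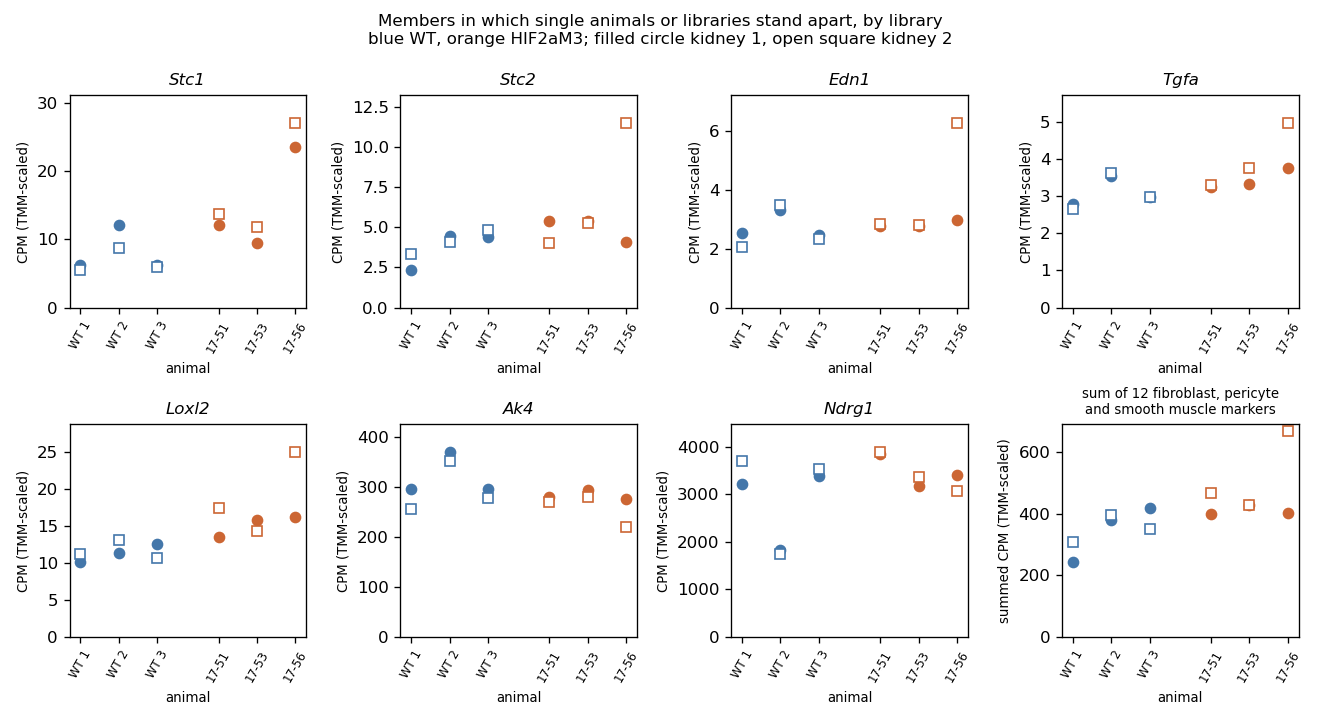
CPM by library for 7 members in which single animals or libraries stood apart, and the summed CPM of 12 fibroblast, pericyte and smooth muscle markers. Kidney 2 of 17-56 (open square at the right of each panel) is the highest HIF2aM3 library for Stc1, Stc2, Edn1, Tgfa, Loxl2 and the marker sum and the lowest for Ak4 and Ndrg1, and WT 2 is low for Ndrg1 in both kidneys.

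The 2 kidneys of an animal differed little for most members. The median absolute log2 ratio of kidney 2 to kidney 1 over the 35 members tested was 0.08 to 0.12 in 5 animals and 0.15 in 17-56. In 17-56, 6 members differed by more than 0.5, namely Stc2 (1.495), Edn1 (1.08), Loxl2 (0.63), Epo (0.57), Angpt2 (0.57) and Ndufa4l2 (0.51), each higher in kidney 2. The same kidney held the highest summed level of fibroblast, pericyte and smooth muscle markers, as given above. In 17-51, whose second kidney is the shallow library, 3 differed by more than 0.5, namely the called member Jmjd6 (-0.745), Bhlhe41 (0.72) and Epo (-0.66). In WT 1 there were 2, Ndufa4l2 (0.52) and Stc2 (0.51), and in the other animals none.

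Other genes of the hypoxia response, from lists of related genes, were read from the same fit. Of 10 genes of HIF subunits and oxygen sensing, 1 rose, Egln3, which encodes an inducible HIF prolyl hydroxylase, from 16.2 ± 1.37 to 57.8 ± 26.6 CPM (SD, n = 3). Of 22 glycolytic and acid-base targets, Hk2 and Pfkp rose and Eno1 and Pgam1 fell, and 18 did not pass. Mean CPM went from 0.399 ± 0.175 to 1.26 ± 0.211 for hexokinase gene Hk2 and from 38.6 ± 4.004 to 112 ± 26.97 for phosphofructokinase gene Pfkp. For the enolase and phosphoglycerate mutase genes Eno1 and Pgam1 they went from 57.5 ± 5.78 to 41.3 ± 3.01 and from 44.9 ± 3.70 to 35.3 ± 1.24. Of 15 other hypoxia targets, Irs2, an insulin receptor substrate gene (13.8 ± 0.889 to 24.97 ± 2.88 CPM), and Ppp1r3b, a glycogen-targeting phosphatase subunit gene (1.61 ± 0.141 to 3.40 ± 0.373 CPM), rose. The glycogen synthase gene Gys1 fell (52.3 ± 1.14 to 41.7 ± 1.75 CPM), and 12 did not pass. These shares, 10%, 18.2% and 20%, stand beside 14.3% of the members and 3.75% of all genes. The lists too were chosen with earlier results of these data known, and the shares were not tested against each other. The list medians were -0.03, 0.01 and 0.20 on the log2 scale.

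Of the partners and relatives of the member proteins, 1 of 27 (3.7%) and 2 of 31 (6.45%) passed the threshold, against 3.75% of all genes. At an unadjusted p under 0.05 there were 4 of 27 partners and 17 of 31 relatives, against 24.9% of all genes. Animals did not overlap for 22.2% of partners and 51.6% of relatives, against 32.0% of all genes. Among 27 partners, such as ligands, receptors and complex subunits, 1 fell, Cav1, which encodes the caveolae protein that binds endothelial nitric oxide synthase, from 31.5 ± 2.58 to 23.7 ± 1.63 CPM (SD, n = 3). Among 31 tested relatives, Nos2, the inducible nitric oxide synthase gene and a relative of Nos3, rose from 0.510 ± 0.135 to 1.47 ± 0.0601 CPM (1.51 ± 0.22, SE, edgeR adjusted p = 0.0234). Its relative in the member list, Nos3, did not pass. Ero1lb, the relative of Ero1l, fell from 8.59 ± 0.275 to 6.199 ± 0.418 CPM (-0.47 ± 0.08, adjusted p = 0.0337), whereas Ero1l itself had 0.11 ± 0.08. Whether the members of either pair differed from each other was not tested.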

How the data were processed

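Per the file headers, the deposited gene counts were raw reads of each library, not scaled. RPKM values are the authors' own, and from the values about 1 read had been added per gene; they served for levels between genes. The authors' deposited log2 fold change and q-values (adjusted p-values, per the file headers) served only for comparison. The authors' deposited mean count of each group, an averaged signal, and their test score were not used. Reads had been aligned to mm9, per the submitters' processing notes, and the aligner, the counter and the strand setting were not stated in the sources used here. Symbols came from a GENCODE M21 table (24630 IDs matched), which also gave exon overlaps.

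For each animal the counts of both kidneys were added, since kidneys of an animal are not independent, and tested with edgeR 4.0.16 (quasi-likelihood, filterByExpr, TMM, robust, two-sided, Benjamini-Hochberg over all genes, threshold 0.05) in R 4.3.3. SE is the size of the log2 fold change divided by the root of F. CPM use TMM factors. Alternatives used DESeq2 1.42.0 and limma 3.58.1. Tested on simulated data for this comparison (19415 genes), the edgeR fit recovered 52.2% of genes changed by 0.5 and 100% of those changed by 1 or 2 (log2), with 9 false calls. The simulation gave every gene the same dispersion and changed only genes above 1 CPM. Recovery of genes that vary more between animals, or that lie lower, was therefore not measured.

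Members, roles and lists were chosen with earlier results of these data known. Values per animal are given for members past the threshold, members whose animals do not overlap and the member of highest mean RPKM in each role. Up to 4 called genes per related list, and Epas1, are given as mean and SD of each genotype. Of the genes that overlap a named member in exons, only some are given, as reads, CPM, fold change or shared bases. Further members are given per animal beside a relative.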

Additional observations from a re-analysis of the deposited data

Results flagged for a closer look

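In 8 of 70 sets of 6 libraries examined, 1 per member and genotype, 1 library lay far from the others; about 1 in 20 is flagged by chance where values are independent, which kidneys of an animal are not. Kidney 2 of 17-56 accounted for 5 of them. There Edn1 was at 6.29 CPM (other HIF2aM3 libraries 2.77 to 2.97), Stc2 at 11.5 CPM (4.01 to 5.40), Loxl2 at 25.0 CPM (13.5 to 17.5), Tgfa at 4.97 CPM (3.25 to 3.76) and Ak4, the only one that was low, at 220.1 CPM (268 to 294). The shallow library, kidney 2 of 17-51, was high for Kdm3a at 43.9 CPM (37.4 to 39.3) and for Nos3 at 10.1 CPM (7.27 to 8.32). Plod1 was at 57.9 CPM in kidney 2 of WT 1, against 44.2 to 47.9 CPM in the other WT libraries.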

How the results depend on the processing

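Over all genes 733 were called and among the members 5. The 12 libraries as replicates gave 4829 and 14, kidney 2 alone 337 and 2, DESeq2 2020 and 12, and limma on RPKM plus 0.1 or plus 1 gave 46 and 35 genes with 1 member each, Bnip3l. Leaving out 1 animal or library gave 11 to 1549 genes, 0 to 7 members and medians of 0.115 to 0.188 (0.154 as reported). The median was 0.131 in DESeq2, 0.121 with no count filter, 0.198 with limma on RPKM plus 0.1 and 0.109 without the shallow library and kidney 2 of 17-56. With no count filter 1003 genes and 6 members were called. In the 6 leave-outs of an animal Ankrd37 was called in 5, Bnip3l in 3, and Kdm3a, Jmjd6 and Plod1 in 1 each, without WT 2. In the 12 leave-outs of a library Ankrd37, Bnip3l and Kdm3a were called in 12, Jmjd6 in 10 and Plod1 in 9. Library size alone lost Jmjd6 (4 members called), and leaving out kidney 1 of 17-56 left 3 members, without Jmjd6 and Plod1. DESeq2 added Ndufa4l2, P4ha1, P4ha2, Loxl2, Kdm4c, Kdm6b and Ccng2. The causes were not tested.

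Of the members, 6 changed sign in at least 1 alternative, none of them called: Kdm4b, Adm, Cited2, Ccnd1, Ndrg1 and Bhlhe41, the last 4 only in leave-outs. Kdm4b (-0.0082 as reported) was 0.000348 with kidney 1, 0.00593 with kidney 2, 0.0129 with library size alone and 0.0315 and 0.0205 with limma on RPKM plus 0.1 and plus 1. Adm (-0.001) was 0.00985 with kidney 1, 0.0197 with library size alone, 0.0297 and 0.0264 with limma and 0.0151 without the shallow library and kidney 2 of 17-56. Leave-outs ran from -0.0505 to 0.0239 for Kdm4b, -0.0905 to 0.0683 for Adm, -0.0285 to 0.236 for Cited2, -0.0614 to 0.246 for Ccnd1, -0.00491 to 0.398 for Ndrg1 and -0.0922 to 0.657 for Bhlhe41. Depth limits Ankrd37, Ndufa4l2, Bhlhe41, Epo, Edn1, Tgfa and Angpt2, each with under 1000 reads per genotype, and P4ha3. No paired analysis was possible because the genotypes share no replicate numbers.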
